A study of Caenorhabditis elegans with 2 samples.

Results

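The Wnt pathway of Caenorhabditis elegans was examined through 10 genes, of 19973 nuclear protein-coding genes in all, for peaks of the T-box transcription factor TBX-2. The genes were taken by symbol from the WBcel235 annotation, and all 10 were found there. They were mom-2 and mom-1 (a ligand and a factor of ligand secretion), lin-17 and mig-5 (a receptor and its cytoplasmic partner), vang-1 (planar polarity), and lit-1, pop-1, wrm-1, sys-1 and bar-1 (nuclear effectors). A peak was given to a gene when its summit lay between 3 kb upstream of the gene's start and the gene's end, a stretch called the gene window here. Peaks were not used to choose the genes by any threshold, but the list was drawn up with earlier results of these data known, so its counts are a description.

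TBX-2 was tagged C-terminally with GFP-FLAG (eGFP) and came from an integrated transgene (wgIs159) in strain OP159, which also holds the unc-119(ed3) III allele. Chromatin of whole hermaphrodite embryos at the late embryo stage, 3.5 h post synchronization by bleaching of eggs, was sonicated and precipitated with an antibody to GFP, and the precipitated DNA was sequenced (ChIP-seq). The 2 biological replicates formed 1 group, with no untagged strain or second condition among the lists used. Peaks that gather at open promoters whatever protein is tagged cannot be told apart from TBX-2 binding here, and neither can the cells of the embryo in which a site was occupied.

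The authors deposited 4 peak lists on the ce11 build that were used. The relaxed list of replicate 1 had 23800 peaks, that of replicate 2 had 23216 and that of the pooled replicates 25747, and the optimal list of reproducible peaks held 3053, of which 3034 were on nuclear chromosomes. The optimal list was the 3053 strongest peaks of the pooled list. Each peak has a signal, the authors' own value on a scale that differs between lists, so ranks are given within a list and rank 1 is the strongest. Read depth is unknown, and the strongest 3053 peaks of each relaxed list serve below as that replicate's own counterpart of the optimal list.

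Wnt proteins are secreted, lipid-modified ligands. They bind Frizzled receptors, Dishevelled proteins carry the signal into the cell, and beta-catenins pair with a TCF protein in the nucleus to switch target genes. In the worm embryo a branch with its own beta-catenins and a Nemo-like kinase polarizes many divisions along the anterior-posterior axis, by setting how much TCF stays in the nucleus of each daughter cell.

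The sequences under 7 of the optimal summits are shown: both at mom-1, the highest-ranked gene, those close to the starts of mig-5 and vang-1, and the 3 at lit-1 that carry a motif. Each holds the summit and 50 bp to each side in RefSeq's WBcel235 genome, written 5′ to 3′ on the strand of the Wnt gene. At mom-1 the first lay upstream, at chrX:6292284-6292384 (+ strand), and capitals mark the part inside a tRNA-Ala gene, T07H6.t2, annotated on the opposite strand. The second lay in an intron at chrX:6296498-6296598 (+ strand). The windows upstream of mig-5 (chrII:8185160-8185260, - strand) and vang-1 (chrX:2885446-2885546, + strand) hold none of the motifs searched. In the lit-1 windows at chrIII:13713060-13713160 and chrIII:13717631-13717731 (both + strand), capitals mark CTGCGTCT, a general promoter element. In the lit-1 window at chrIII:13721303-13721403 (+ strand), capitals mark the GC-box GGGCGG as read on the opposite strand.
mom-1 upstream: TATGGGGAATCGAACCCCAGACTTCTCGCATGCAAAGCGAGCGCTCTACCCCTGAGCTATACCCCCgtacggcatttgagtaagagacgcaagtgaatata
mom-1 intron: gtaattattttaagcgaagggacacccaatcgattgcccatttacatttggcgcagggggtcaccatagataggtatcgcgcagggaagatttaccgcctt
mig-5 upstream: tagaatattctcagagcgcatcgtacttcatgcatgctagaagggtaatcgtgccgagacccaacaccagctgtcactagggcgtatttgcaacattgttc
vang-1 upstream: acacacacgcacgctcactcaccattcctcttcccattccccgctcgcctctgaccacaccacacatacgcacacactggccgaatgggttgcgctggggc
lit-1 intron, first summit: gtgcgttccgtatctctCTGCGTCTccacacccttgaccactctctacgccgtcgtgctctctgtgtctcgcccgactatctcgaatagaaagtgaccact
lit-1 intron, middle summit: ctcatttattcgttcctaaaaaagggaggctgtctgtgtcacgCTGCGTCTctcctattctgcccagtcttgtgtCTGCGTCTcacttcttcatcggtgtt
lit-1 intron, last and strongest summit: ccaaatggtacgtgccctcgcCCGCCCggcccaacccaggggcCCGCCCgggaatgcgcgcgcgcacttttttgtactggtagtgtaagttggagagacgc

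Optimal peaks were found at 7 of the 10 genes: mom-1, lin-17, mig-5, vang-1, lit-1, pop-1 and wrm-1. Over all protein-coding genes 17.7% had an optimal summit in their window. The genes without one were mom-2, sys-1 and bar-1. By the strongest 3053 peaks of each replicate the count was 8 in replicate 1, where 17.6% of all genes had such a summit, and 7 in replicate 2, against 17.7%. The extra gene in replicate 1 was sys-1, so both replicates held the same 7 genes.

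The windows of the 10 genes held 15 optimal summits in 99.7 kb, or 0.15 per kb, and 4298 gene assignments in 124353.6 kb gave 0.0346 per kb over all genes. The single gene lit-1 supplied 6 of the 15, and without it the other 9 genes held 9 summits, or 0.121 per kb. There were 4 genes with 2 or more optimal summits (mom-1, lit-1, pop-1 and wrm-1), a state of 2.88% of all genes. With windows from 1 kb upstream pop-1 and wrm-1 kept 1 summit each, which left 2 such genes, mom-1 and lit-1. The share of all genes was not computed for that window. Within 1 kb of an annotated 5′ end there were 6 genes with an optimal summit, against 11.5% of all genes, and pop-1 dropped out because its summits lay at -1213 and 1085 bp from its start. The gene windows of the pathway were long, with a median of 7.78 kb against 5.03 kb for all genes. Among all genes with windows of 5 to 8 kb, 18.6% had an optimal summit, and 3 of the 6 pathway genes of that size did (mig-5, vang-1 and wrm-1). Among genes with windows of 8 to 12 kb the share was 28.0%, and both pathway genes there, mom-1 and pop-1, had one. With windows of 12 to 20 kb it was 34.6%, and lin-17, the 1 pathway gene there, had one. The shares for 2 or more summits and for 1 kb of a 5′ end were not matched for window length or number of 5′ ends. Of the latter lit-1 had 7 and lin-17 had 5.

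**Figure D1:**
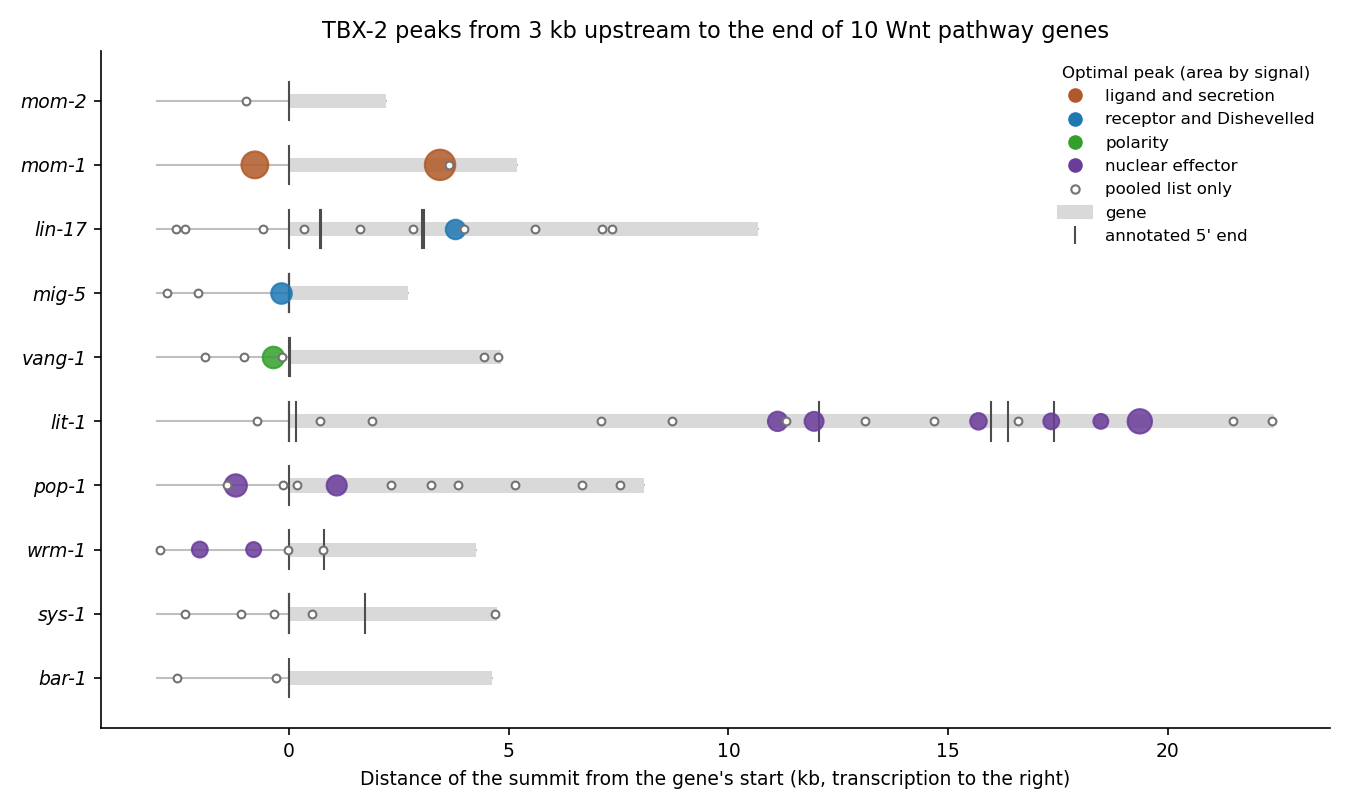
Position of TBX-2 summits along the 10 gene windows, in kb from the gene's start with transcription to the right. Filled circles are optimal peaks with area by pooled signal and colour by role, open circles are summits of the pooled list only, grey bars are genes and ticks are annotated 5′ ends; filled circles stand at 7 genes, and 6 of the 15 stand inside lit-1.

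Of the ligand and its secretion factor, mom-1 held the 2 highest-ranked peaks among the 10 genes and mom-2 carried none in the optimal list. The gene mom-1 (WBGene00003394, chrX:6293112-6298305, + strand) encodes the Porcupine homologue, the acyltransferase that attaches the lipid needed for Wnt secretion. Its intronic summit lay in intron 7, a 1299-bp intron, at 3436 bp from the start. The signal there was 354, and the rank was 116 in the optimal list, 114 in replicate 1 (signal 200.8) and 125 in replicate 2 (signal 153). Both replicates placed it in nearly the same rank, and both summits fell on the same base as the pooled one. The 5′ end of cest-16, at -3394 bp, was slightly nearer to this summit than that of mom-1, so mom-1 held no optimal peak when peaks went to the closest 5′ end only.

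The upstream mom-1 summit lay at -778 bp with a signal of 276. It ranked 251 in the optimal list, 219 in replicate 1 (signal 166) and 303 in replicate 2 (signal 114). This is the window of which the first part is a tRNA gene. It lies in a 1379-bp gap between mom-1 and the divergent gene lev-9, and at -602 bp it was nearer to the 5′ end of lev-9 than to that of mom-1. Of the 66 stretches of 36 bases in that window 32 were found elsewhere in the genome, and none of the stretches in the other 14 windows were. Whether repeated sequence moved the height of this peak was not tested. Among all nuclear optimal summits 175 (5.77%) lay within 200 bp of a tRNA gene.

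The ligand gene mom-2 (WBGene00003395, chrV:8355988-8358185, + strand), a Wnt that acts in endoderm specification in the early embryo, had 1 pooled summit, at -969 bp. Its signal was 39.6, and it ranked 10175 in the pooled list, 23670 in replicate 1 and 9616 in replicate 2. It was thus near the weakest of the relaxed list in replicate 1.

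The receptor and its partner each had 1 optimal peak of middle rank. The Frizzled receptor gene lin-17 (WBGene00003006, chrI:2706883-2717549, + strand) had its summit in intron 4 (1054 bp), at 3778 bp from the gene's start and 708 bp past its nearest annotated 5′ end. Its signal was 146, and it ranked 1174 in the optimal list, 1257 in replicate 1 and 1029 in replicate 2. The GC content of 34.7% within 50 bp of it was the lowest of the 15 windows, whose median was 51.5%. The window of lin-17 held 11 summits of the pooled list in all, and the next strongest, at 2817 bp, ranked 5072.

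The Dishevelled gene mig-5 (WBGene00003241, chrII:8182323-8185023, - strand) relays the signal of Frizzled receptors inside the cell. Its summit lay at -187 bp, close to the 5′ end, in the 419-bp gap to the divergent chaperonin gene cct-1. The pooled summit was nearer to mig-5, as was that of replicate 1, at -188 bp. In replicate 2 the summit lay at -231 bp, past the middle of the gap and so nearer to cct-1. The signal was 163, and the peak ranked 951 in the optimal list, 1248 in replicate 1 and 841 in replicate 2. The peak of mig-5 ranked ahead of that of lin-17 in each list, but in replicate 1 the gap between them was smaller than the shift of either peak between the replicates.

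The polarity gene vang-1 (WBGene00015171, chrX:2885858-2890681, + strand), the homologue of the membrane protein Van Gogh, had its summit at -362 bp. The signal was 179, and the peak ranked 792 in the optimal list, 761 in replicate 1 and 872 in replicate 2. The next protein-coding gene upstream, F53B3.5, was 6278 bp away, and the summit was nearest to vang-1 itself. The noncoding RNA genes F53B3.10, F53B3.11 and F53B3.12 lay within 200 bp of the summit. The other 5 pooled summits in the window ranked 3961 or lower.

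**Figure D2:**
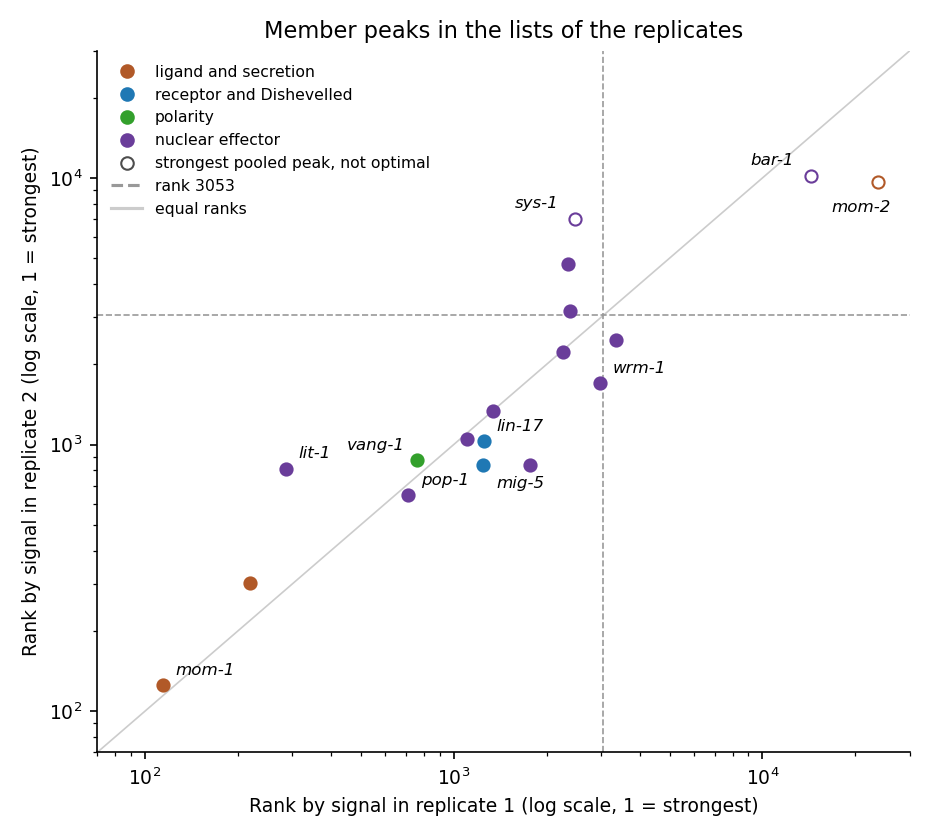
Rank of each peak in replicate 1 (horizontal, log scale) against replicate 2 (vertical, log scale), with rank 1 the strongest, coloured by role. Filled circles are the 15 optimal peaks, labelled once per gene at its best-ranked peak, open circles the strongest pooled peak of sys-1, bar-1 and mom-2, and dashed lines mark rank 3053; mom-1 stands at 114 and 125, and bar-1 and mom-2 lie far beyond both lines.

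Among the nuclear effectors lit-1, pop-1 and wrm-1 had optimal peaks, 10 of the 15, and the beta-catenin genes sys-1 and bar-1 had none. The windows of these 5 genes made up 59.1 of the 99.7 kb. They held 0.169 optimal summits per kb, beside 0.15 over all 10 genes, and lit-1 alone supplied 6 of the 10 summits. The gene lit-1 (WBGene00003048, chrIII:13701991-13724404, + strand) encodes the Nemo-like kinase that, with WRM-1, phosphorylates the TCF protein POP-1. Its 6 optimal summits put it among 9 genes (0.0451% of all) with 6 or more. Its window of 25.41 kb was also long: of the 300 genes with windows over 20 kb 49.3% had an optimal summit, with a mean of 0.907 summits, and 4 genes (1.33%) had 6 or more.

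All 6 lit-1 summits lay in introns of the longest transcript, between 11119 and 19362 bp from the gene's start, in the part where the shorter transcripts begin. The 5′ end of transcript a lies at 12054 bp, that of b at 15974 bp, that of e at 16368 bp and that of c at 17405 bp. Summits at 11119 and 11949 bp lay at -935 and -105 bp from the start of transcript a. The summit at 15690 bp lay at -284 bp from that of b, and the one at 17347 bp at -58 bp from that of c. Of the 6, 4 were thus within 1 kb of a short transcript's start, and each of those 4 was upstream of the start nearest to it. The summit at 17347 bp also lay past the start of e, within 1 kb of it. The summits at 18475 and 19362 bp lay at 1070 and 1957 bp past the start of c, in intron 8. At the start of the long transcripts there was no optimal peak. The pooled summit upstream of them, at -740 bp, ranked 7121 (6083 in replicate 1 and 20817 in replicate 2), and the one at 709 bp ranked 21262.

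The strongest lit-1 peak was the last, at 19362 bp, with a signal of 227.5 and ranks of 443 in the optimal list, 287 in replicate 1 and 813 in replicate 2. It was 210 bp wide, where 12 of the 15 peaks had the commonest width of the list, 436 bp, as did 78.3% of all optimal peaks. A noncoding RNA gene, W06F12.7, lay within 200 bp of it. The peaks at 11119 and 11949 bp had signals of 144 and 138 and optimal ranks of 1191 and 1283. The other 3 were weaker, with signals of 105, 95.9 and 84.8 at 15690, 17347 and 18475 bp. The last 2 of these ranked 2385 and 2337 in replicate 1 but 3158 and 4759 in replicate 2, past the 3053 strongest there. Counted in each replicate's strongest 3053 peaks, lit-1 had 6 summits in replicate 1 and 4 in replicate 2.

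**Figure D3:**
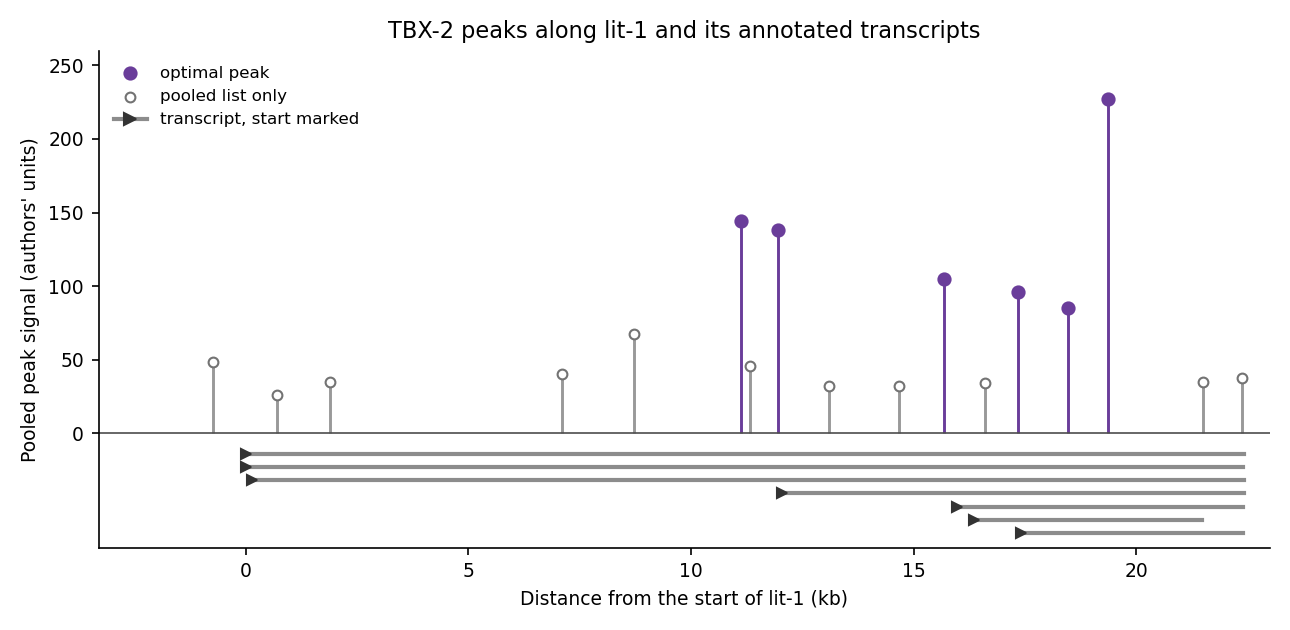
Pooled signal (the authors' units) of every TBX-2 summit against its distance in kb from the start of lit-1, with the 7 annotated transcripts below and their starts marked. Filled circles are the 6 optimal peaks, which stand between 11119 and 19362 bp, and open circles are summits of the pooled list only, the highest of which has a signal of 67.5.

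The gene pop-1 (WBGene00004077, chrI:2822243-2830311, - strand) encodes the worm's TCF protein, which represses or activates Wnt targets depending on its nuclear level and its beta-catenin partner. Its stronger summit lay at -1213 bp, with a signal of 191 and ranks of 672 in the optimal list, 713 in replicate 1 and 646 in replicate 2. The other lay in intron 1 (1520 bp) at 1085 bp, with a signal of 155 and ranks of 1051, 1105 and 1053 in the same lists. Both were close in rank between the replicates. The pooled summit nearest to the annotated start of pop-1, at -134 bp, ranked 6085 in the pooled list. Upstream of pop-1 the next protein-coding gene, ccb-2, was 15547 bp away, and the noncoding RNA genes W10C8.8 and W10C8.12 lay within 200 bp of the upstream summit.

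The beta-catenin gene wrm-1 (WBGene00006943, chrIII:5722850-5727115, + strand) encodes the partner of LIT-1 in lowering nuclear POP-1. Both of its optimal summits were upstream and weak. At -2031 bp the signal was 96.8 and the rank 2317 in the optimal list, 2988 in replicate 1 and 1698 in replicate 2. At -806 bp the signal was 85.9 and the ranks 2814, 3349 and 2459 in the same lists, so in replicate 1 that peak fell outside the strongest 3053. With the 1526 stronger peaks of the optimal list alone, wrm-1 had no summit and the count of genes fell from 7 to 6. The share of all genes with a summit among those peaks was not computed.

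The remaining beta-catenin genes differed from each other in how far they missed the optimal list. The gene sys-1 (WBGene00006379, chrI:9980063-9984794, - strand) encodes the coactivator of POP-1. Its strongest pooled peak, in coding sequence at 528 bp, had a signal of 69.0 and stood at rank 3947, against a last optimal rank of 3053 with a signal of 81.6. It ranked 2476 in replicate 1 and 7030 in replicate 2. Its -log10 of the q-value was 2.157, against 2.976 in the optimal peaks. Upstream pooled summits of sys-1 at -352 and -1083 bp ranked 4559 and 4975. They stood at 4740 and 5320 in replicate 1 and at 4968 and 6091 in replicate 2. A replicate 2 peak ranked 503 (signal 96.6) overlapped the weak pooled peak in the 3′ UTR of sys-1, but its own summit lay outside the window.

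The gene bar-1 (WBGene00000238, chrX:7166005-7170625, - strand) encodes the beta-catenin of the canonical branch, used in vulval and neuroblast fates. Its strongest pooled peak, at -307 bp, had a signal of 40.8 and stood at rank 9686 in the pooled list, 14355 in replicate 1 and 10210 in replicate 2. It therefore stood below sys-1 in both replicates. In the relaxed pooled list all 10 genes had a summit, as did 60.6% of all genes. Those 10 windows held 64 pooled summits, 49 of them outside the optimal list.

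The best-ranked summit in each gene's window, taken in each replicate, gave a partial order. Windows ran from 5.2 kb (mom-2) to 25.41 kb (lit-1), and the order was not adjusted for their length. The gene mom-1 came first in each, at 114 and 125, by its intronic summit, which was nearer to the 5′ end of cest-16. Next were lit-1 (287 and 813) and pop-1 (713 and 646), which changed places between the replicates. The gene pop-1 was ahead of vang-1 (761 and 872) in both, and vang-1 and mig-5 (1248 and 841) changed places. The gene lin-17 (1257 and 1029) came after these in both replicates and ahead of wrm-1 (2988 and 1698) and sys-1 (2476 and 4968), which changed places. The sys-1 ranks belong to different summits, at 524 bp in replicate 1 and -352 bp in replicate 2. Last in both were bar-1 (14355 and 10210) and mom-2 (23670 and 9616), which also changed places.

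All 15 optimal peaks had an overlapping peak in both replicates, and the replicate summits lay a median of 22 bp apart (at most 74 bp). Over the 3034 nuclear optimal peaks 3030 were matched in both, with a median gap of 25 bp. The optimal list was itself made from the same 2 replicates, so this match is not independent of the selection. In the strongest 3053 peaks of both replicates there were 12 of the 15 (80%), against 73.5% of all nuclear optimal peaks. The 15 had a median optimal rank of 1174, against 1536.5 for all nuclear optimal peaks. Of the 15, 10 were among the 1526 stronger peaks, as were 1507 of the 3034. By place, 9 of the 15 were in introns, 6 of these at lit-1 alone, and 6 were upstream of the gene. The shares by place over all optimal peaks were not computed.

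Motifs were sought on both strands, within 50 bp of each summit. The T-box site GGTGTGA and its core GTGTGA, which the site contains, were in none of the 15 windows, and a count of 0 allows a share of up to 20%. Of all nuclear optimal windows 1.32% held the site and 8.73% the core. The TCF site CTTTGAT was also in none (0.692% of all windows), as were the FoxA site TGTTTAC (1.81%) and the repeat GAGAGAGA (8.7%). The GATA site AGATAA was in 1 window, at pop-1 (3.16% of all). Outside the optimal list, the pooled vang-1 summit at -1034 bp (pooled rank 4601) held GGTGTGA within 50 bp. The pooled lit-1 summit at 7100 bp (rank 9877) held the core GTGTGA. Shares over the pooled list were not computed.

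The promoter element CTGCGTCT was in 2 windows (13.3%, against 10.3% of all), both shown above for lit-1, and the window at 15690 bp held 2 copies. The GC-box GGGCGG was in 1 window (7.81% of all), the strongest lit-1 summit. Within 100 bp of the summit the core GTGTGA was in 3 of 15, at lit-1, pop-1 and wrm-1 (20%, against 15.6% of all), the TCF site in 1, at wrm-1 (1.62% of all), and CTGCGTCT in 5, at lit-1 and pop-1 (33.3%, against 16.0%). With 15 windows, 6 of them from 1 gene, these shares rest on few sites.

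A further 24 genes of the pathway gave the setting, and 10 of them had an optimal summit, beside 17.7% of all genes. They held 13 summits, or 0.0626 per kb, beside 0.0346 per kb over all genes. Within 1 kb of a 5′ end 3 of the 24 had one, a share near the 11.5% of all genes. Taking all 34 genes together by role, none of the 5 ligand genes had an optimal summit, and 1 of the 3 genes of secretion did, mom-1. The ligand windows were short, with a median of 5.62 kb. Of all genes with windows of 5 to 8 kb 18.6% had an optimal summit, and with 5 genes a count of 0 is near that share. Among the ligands egl-20 and lin-44 had no summit even in the pooled list. Of the 6 receptor genes 4 had one: lin-17, mom-5 and cfz-2 (Frizzled receptors) and cam-1 (a Ror receptor tyrosine kinase). All 3 Dishevelled genes had one, and so did 2 of the 3 polarity genes, vang-1 and prkl-1 (Prickle).

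Of the 5 genes of the destruction complex, which marks beta-catenin for breakdown, kin-19 (casein kinase), pry-1 and axl-1 (both Axin-like) had an optimal summit. Of the 4 beta-catenin genes wrm-1 and hmp-2 (the beta-catenin of cell adhesion) did. Of the 4 genes of the TCF and kinase branch, pop-1 and lit-1 did and mom-4 and tap-1 did not. The role groups are small, and the counts are given without a test, where 17.7% of all genes had an optimal summit.

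The strongest of these other peaks stood at hmp-2, at -1415 bp with a signal of 302 and ranks of 187 in the optimal list, 189 in replicate 1 and 211 in replicate 2. At -235 bp it was nearer to the 5′ end of K05C4.7. The receptor gene cam-1 had a summit at 1347 bp with a signal of 263 and ranks of 290, 273 and 392 in the same lists. No other gene among the 24 had a peak stronger than rank 1170. Between ranks 1170 and 2524 stood the best peaks of dsh-1 and dsh-2 (Dishevelled), kin-19, axl-1, cfz-2, prkl-1, pry-1 and mom-5. The summits at dsh-1 (-2667 bp), axl-1 (-2441 bp) and mom-5 (-2662 bp) were nearer to the 5′ ends of EGAP2.2, sec-12 and algn-10. The gene of the tagged protein, tbx-2, had 4 optimal summits in a window of 8.37 kb. Its tagged form came from an integrated transgene, and whether transgene copies added to those peaks was not tested.

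**Figure D4:**
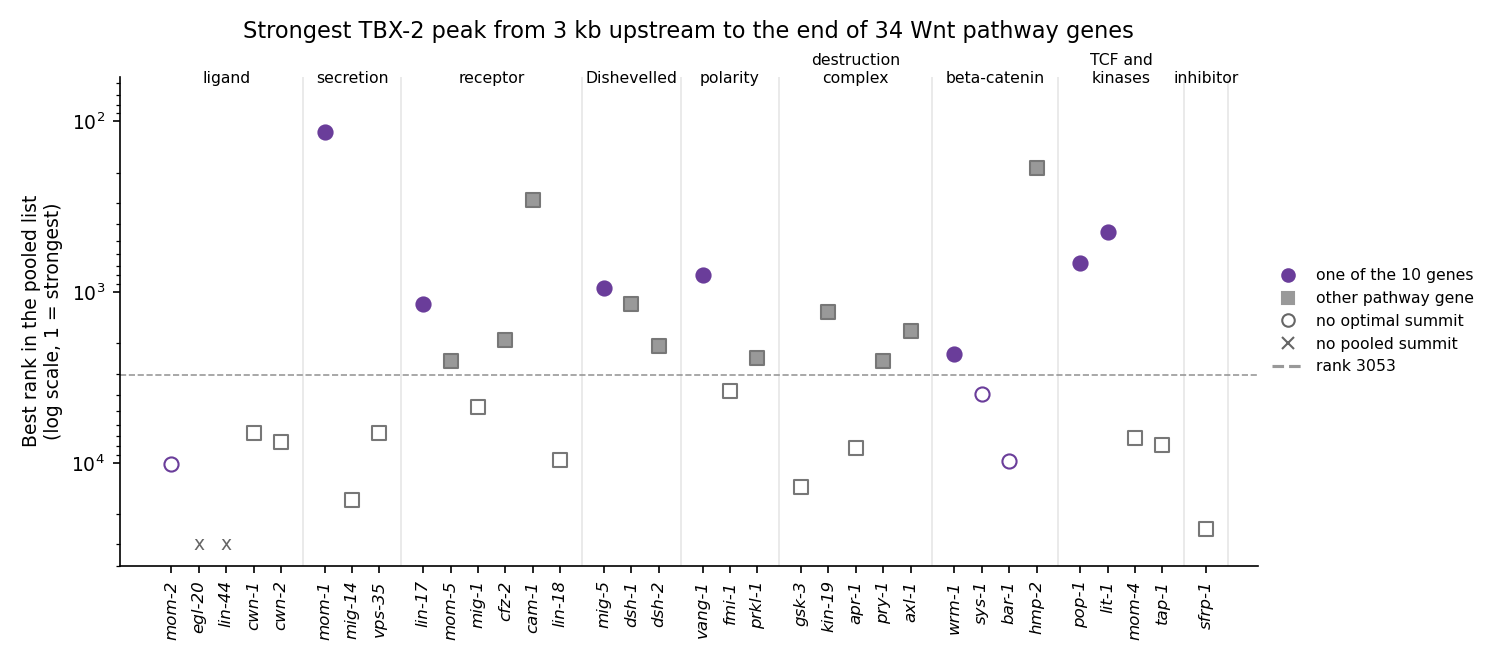
Rank in the pooled list (log scale, 1 at the top) of the strongest TBX-2 peak in the window of each of 34 Wnt pathway genes, grouped by role. Circles are the 10 genes described first and squares the 24 others, filled where an optimal summit lay in the window, and the dashed line marks rank 3053. None of the 5 ligand genes rises above the line, and all 3 Dishevelled genes do, where 17.7% of all protein-coding genes had an optimal summit. The groups are small.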

How the data were processed

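TBX-2 was mapped by ChIP-seq with an antibody to GFP in 2 biological replicates of 1 group. Per the labels' accompanying file lists, the authors called peaks on each replicate and on the pooled replicates against a control library, and formed the optimal list by filtering the pooled peaks on the irreproducible discovery rate. The deposited signal of a peak, and the -log10 of its q-value, are the authors' own values. No aligner, caller or threshold is named: each is not given in the sources used here. Lists on ce10 were not used here. Read depth is unknown, so no interval is given for a peak, and limits on counts of 0 cover counting error only.

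Summits were placed in gene models of Ensembl release 115 (WBcel235, the ce11 sequence), with Python 3.11.15, pandas 2.3.3 and numpy 2.4.6. Replicate peaks were matched by an overlap of at least 1 bp, taking the nearest summit. Sequences came from RefSeq's WBcel235 assembly. Motifs were short fixed words, so weaker matches were not counted. Peak assignment and motif steps were checked on simulated data.

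The members and lists were chosen with earlier results of these data known, so no test was made. Text names all 10 members, tbx-2, the other listed pathway genes with an optimal summit, and genes nearer to such a summit; upstream neighbours, noncoding genes and pathway genes without a summit were named after their values were seen. Alternatives were windows of 1 and 5 kb, peak overlap, the nearest 5′ end, the 1526 stronger optimal peaks, distances of 500 bp and 2 kb, repeated intervals left out, wider motif windows and each replicate alone.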

Additional observations from a re-analysis of the deposited data

How the results depend on the processing

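Of 110 values recomputed under 11 settings 95 stayed within 1.5 times the main value and 15 moved further. The count of genes with an optimal summit was 7, and it stood at 7 with 1 kb upstream (where pop-1 and wrm-1 had 1 summit each in place of 2), 8 with 5 kb or with peak overlap, 6 with the nearest 5′ end and 6 with the 1526 stronger optimal peaks. With 1 replicate left out it ranged from 7 to 8, and the number of summits from 13 to 15. The genes within 1 kb of a 5′ end were 6 in either case, but not the same 6. Without replicate 1 they included wrm-1 and not sys-1, and without replicate 2 sys-1 and not wrm-1. Within 500 bp of a 5′ end 3 genes had an optimal summit, in place of 6 within 1 kb, and within 2 kb 7 did. Shares of all genes were not computed for the other upstream limits, peak overlap, the nearest 5′ end, the stronger peaks or the other distances. The counts of pathway genes under those settings therefore stand without a background. With the nearest 5′ end, mom-1 lost both summits to lev-9 and cest-16. With 5 kb upstream sys-1 gained 1 summit more than 3 kb from its start, and with replicate 1 alone it gained the one at 528 bp. With overlap sys-1 gained 1 peak whose summit lay outside the window. Without replicate 1 lit-1 had 4 in place of 6. Without replicate 2 wrm-1 had 1 in place of 2. The GGTGTGA site stayed at 0 windows of 15 within 100 bp of the summit. No paired analysis was possible because there was 1 group. Peaks have no depth or error, no library of an untagged strain was used, and the wrm-1 summit at -806 bp, the sys-1 summit at 528 bp and the lit-1 summits at 17347 and 18475 bp stood on different sides of rank 3053 in the 2 replicates.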

Other observations

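Some weaker summits of the pooled list stood about 200 bp from an optimal one. Of the 15 optimal peaks of the pathway genes 5 had a summit outside the optimal list over 190 and up to 210 bp away: the intronic peak of mom-1, those of lin-17 and vang-1, the lit-1 peak at 11119 bp and the upstream peak of pop-1. These gaps ran from 199 bp (mom-1) to 209 bp (pop-1). None had one nearer. Over the 3034 nuclear optimal peaks 695 (22.9%) had such a summit at that distance, 96 (3.16%) over 210 and up to 230 bp away and 0 nearer. The weaker summits at these genes ranked between 3924 (pop-1) and 15993 (lin-17) in the pooled list. Of the 49 pooled summits outside the optimal list in the 10 windows, 19 were upstream, 16 in introns, 8 in coding sequence, 5 in 3′ UTRs and 1 in another exon.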
